A study of Homo sapiens with 8 samples.

Results

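The mock IP is the channel of the promoter arrays in which no SMAD3 antibody was used. Chromatin of A549, an established human cell line that came from an adenocarcinoma of the lung and is used as a model of alveolar epithelium, was precipitated with an anti-flag antibody, and the recovered DNA was amplified, labelled with Cy3 and hybridised beside the Cy5-labelled SMAD3 IP of the same cells. The unstimulated (basal) group had serum-starved cells without cytokine, and the stimulated group had serum-starved cells treated with 2 ng/ml TGFβ1, for 2 h at the longest. Each condition had 2 replicates, each hybridised to slide 1 (chromosomes 1 to 9 and a part of 10) and to slide 2 (the rest), which gave 8 arrays. The sample labels call the replicates biological, both conditions come from 1 cell line, and the dyes were not swapped. Of 474411 probes on both slides, the 198286 that the scanner software marked as well above background in the mock channel on all 4 arrays of their slide were kept, which is 36.2% of slide 1 and 47.4% of slide 2. Kept probes from 2000 bp upstream to 800 bp downstream of an annotated start were averaged per gene, and 12977 promoters with at least 3 such probes were tested, 6112 on slide 1 and 6865 on slide 2. A level is the log2 processed intensity minus the median of the kept probes of its array, so that 0 is the median kept probe, and a change is the stimulated mean minus the unstimulated mean.

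In chromatin immunoprecipitation, formaldehyde fixes proteins to DNA, sonication shears the DNA, and an antibody with beads pulls down the fragments that carry its antigen. The flag tag is an artificial peptide that cells do not make unless it is introduced, and a mock IP with an antibody to it measures unspecific recovery. Open chromatin at active starts is known to shear and to stick more readily than closed chromatin. The mock IP is the denominator of the ratio from which SMAD3 binding is read, and SMAD3 is the transcription factor that carries the TGFβ1 signal from its receptors to the promoters of target genes.

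The files hold no probe sequences, so the promoters are shown by their RefSeq sequence (build GRCh38.p14), from 250 bases before to 50 after the RefSeq start. On each slide the called promoter with the highest rise and the one with the largest fall are printed among those with at least 4 kept probes, no overlap between the conditions, a RefSeq entry and a called probe within this stretch. The start used for the array may differ from that of RefSeq. Capitals mark CAGAC or its complement GTCTG, the core of the SMAD-binding element, which 45.0% of the 27305 RefSeq promoters hold. IARS lies at chr9:92293648-92293947 (minus strand), SPINK4 at chr9:33239917-33240216 (plus strand), IDS at chrX:149505257-149505556 (minus strand) and RNF125 at chr18:32018575-32018874 (plus strand). IARS and SPINK4 hold the element 0 times, IDS and RNF125 1 time each.
IARS: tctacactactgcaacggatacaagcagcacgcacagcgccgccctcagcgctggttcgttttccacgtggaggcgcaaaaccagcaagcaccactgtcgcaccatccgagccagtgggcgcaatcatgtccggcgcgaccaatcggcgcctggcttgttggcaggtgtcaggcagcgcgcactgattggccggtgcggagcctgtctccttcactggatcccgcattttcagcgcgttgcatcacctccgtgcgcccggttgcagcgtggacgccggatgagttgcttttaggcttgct
SPINK4: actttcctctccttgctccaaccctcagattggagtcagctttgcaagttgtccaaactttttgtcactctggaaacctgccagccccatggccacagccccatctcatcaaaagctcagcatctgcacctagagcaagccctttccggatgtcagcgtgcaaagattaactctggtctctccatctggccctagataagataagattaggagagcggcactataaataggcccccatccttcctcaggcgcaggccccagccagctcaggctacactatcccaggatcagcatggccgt
IDS: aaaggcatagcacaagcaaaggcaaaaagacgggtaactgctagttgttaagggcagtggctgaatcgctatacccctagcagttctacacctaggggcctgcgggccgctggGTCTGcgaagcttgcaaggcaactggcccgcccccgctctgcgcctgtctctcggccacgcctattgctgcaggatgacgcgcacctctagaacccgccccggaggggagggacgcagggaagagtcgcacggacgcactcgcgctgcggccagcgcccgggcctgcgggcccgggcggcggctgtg
RNF125: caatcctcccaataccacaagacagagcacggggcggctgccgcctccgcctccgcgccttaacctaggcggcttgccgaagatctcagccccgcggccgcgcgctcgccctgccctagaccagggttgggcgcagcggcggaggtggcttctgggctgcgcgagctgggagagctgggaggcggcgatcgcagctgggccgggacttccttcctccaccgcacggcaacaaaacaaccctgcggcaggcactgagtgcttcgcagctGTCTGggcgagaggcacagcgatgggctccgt

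The mock IP differed widely between the conditions. On slide 1, 1168 promoters (19.1%) rose and 1000 (16.4%) fell after TGFβ1 stimulation in limma, with Benjamini-Hochberg adjustment at 0.05 over the slide. On slide 2, 2284 promoters (33.3%) rose and 1818 (26.5%) fell. Over both slides this gave 26.6% higher and 21.7% lower, and 611 of the promoters that rose and 616 of those that fell changed over 4-fold. At the level of single probes, 13639 of 85762 (15.9%) were called higher and 13310 (15.5%) lower on slide 1, and 29667 of 112524 (26.4%) higher and 25298 (22.5%) lower on slide 2. A difference over 4-fold between the condition means was seen at 20.4% and 22.6% of probes on slides 1 and 2. Between the replicates of a condition it was seen at 8.44% (unstimulated) and 0.532% (stimulated) of probes on slide 1 and at 0.387% and 2.17% on slide 2. Apart from the outermost 1% at each end, probe changes ran from -7.24 to 7.62 on slide 1 and from -7.87 to 7.68 on slide 2.

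Across the kept probes, the mock levels of the replicates correlated with a Pearson r of 0.903 (unstimulated) and 0.984 (stimulated) on slide 1 and of 0.987 and 0.963 on slide 2. Between the conditions r was 0.603 to 0.624 on slide 1 and 0.586 to 0.612 on slide 2. The points of each correlation share a slide, and probes are not independent replicates. The unstimulated pair of slide 1 was the least alike, and the number of calls on slide 1 turned on single arrays. Without unstimulated replicate 1 or 2 the promoter calls were 3655 and 3729, and without stimulated replicate 1 or 2 they were 1219 and 1216, in place of 2168. In each of these fits the lone array takes its spread from the other condition. The probe calls were 43787 without unstimulated replicate 2 and 8033 and 8004 without stimulated replicate 1 and 2 on slide 1, and 32996 and 33379 without unstimulated replicate 1 and 2 on slide 2, in place of 26949 and 54965.

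**Figure D1:**
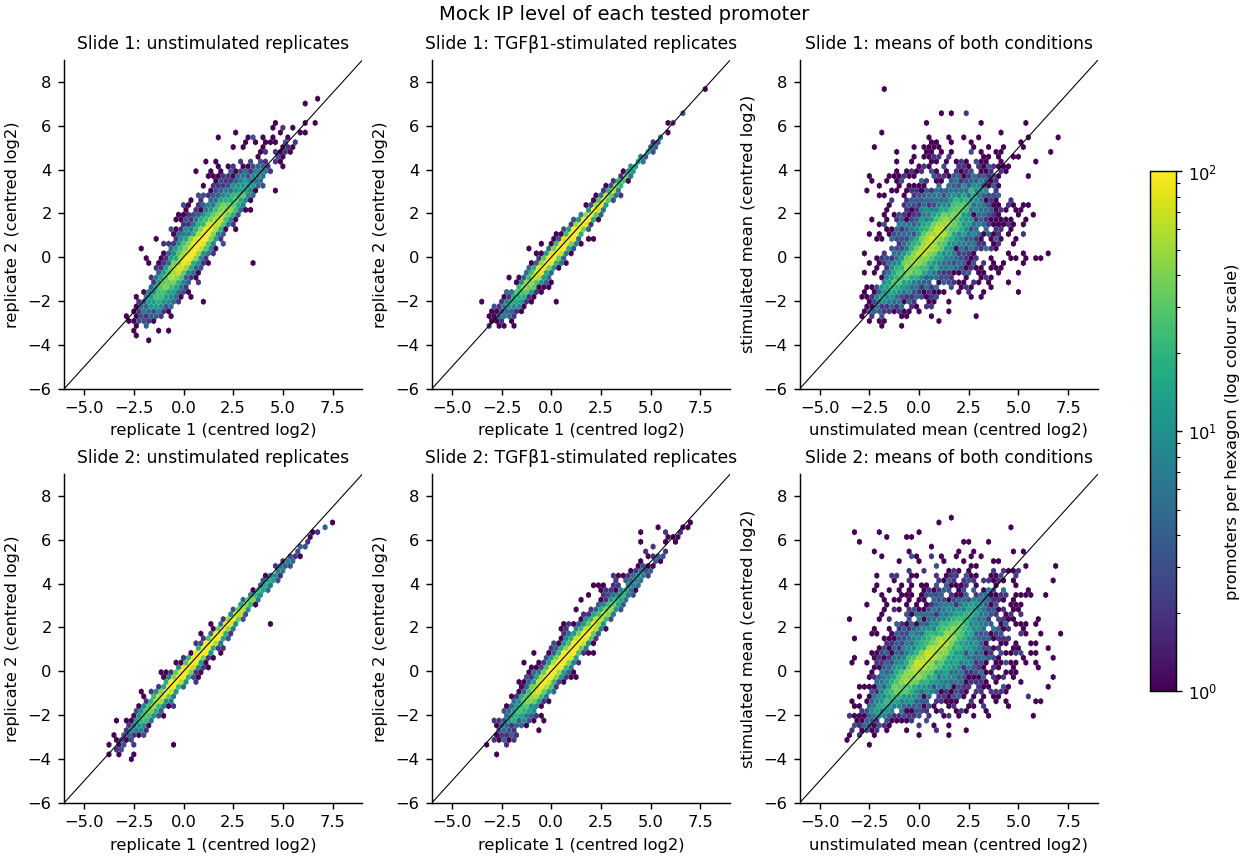
Mock IP level of every tested promoter in replicate 1 against replicate 2 of each condition and, on the right, in the unstimulated against the stimulated mean, with the line of equality (log2, 0 is the median kept probe, colour is the number of promoters per hexagon on a log scale). Replicates lie along the line, while the condition means spread away from it in both directions, with 1232 promoters over 4-fold apart.

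The split between rises and falls depended on the centring. Centred on the median of all probes in place of the kept ones, slide 1 had 301 promoters higher and 88 lower and slide 2 had 1196 higher and 2119 lower. With this centring the median change of all tested promoters was 0.60 on slide 1 and -0.16 on slide 2, in place of 0.06 and 0.12. With the 75th percentile, the median was -0.05 and 0.33, with 575 higher and 695 lower on slide 1 and 2909 and 1356 on slide 2. Small changes therefore have no settled direction, while the highest rises and largest falls described next are many times larger than these shifts. Normexp background correction, given with the alternatives, ended the calls of all promoters of slide 2.

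The highest rise of slide 1 among the promoters with at least 4 kept probes was at FUBP1, whose protein binds single-stranded DNA upstream of MYC. Its level was -1.05 and -2.32 on the unstimulated arrays and 7.69 and 7.61 on the stimulated ones. All 6 probes moved together, by 8.31 to 10.08. At the probe 91 bp downstream of the start, the processed intensity was 532 and 541 units on the unstimulated arrays and 217947 and 245615 on the stimulated ones. The promoter rose by 9.34 on the log2 scale (standard error 0.42, adjusted p 0.000199 in limma). Without saturated or outlier spots, fewer than 3 of its probes remained and it was not tested.

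IARS, which encodes the isoleucyl-tRNA synthetase and has its RefSeq promoter printed above, came next. Its level was -1.69 and -2.09 without TGFβ1 and 5.57 and 5.55 with it, which was a rise of 7.45 on the log2 scale (standard error 0.20, adjusted p 0.000175 in limma). The probe with the highest rise, at -183 bp, rose from 105 and 73.6 units to 143525 and 170024. NOL8, a nucleolar protein gene that is also on chromosome 9, rose by 5.58 (standard error 0.23, limma adjusted p 0.00018). In NOL8, 3 probes at -796, -670 and -548 bp from the start rose by 6.99 to 7.93, while the probe at -1403 bp changed by 0.17, which did not pass the test. ISY1, a splicing factor, had levels of -1.96 and -2.34 against 5.17 and 5.02 (log2 change 7.25). PIK4CB, a phosphatidylinositol kinase, had a mean level of 0.36 (SD 0.38, n = 2) against 6.05 (SD 0.08, n = 2), a log2 change of 5.69. In all 5 of these promoters both stimulated arrays lay above both unstimulated ones, as their choice requires.

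On slide 2 the highest rise among promoters with at least 4 kept probes and no overlap was at MRGPRD, a receptor known from sensory neurons. Its level was -3.04 on both unstimulated arrays and 5.33 and 6.51 on the stimulated ones, and all 4 probes were called higher. The change of 8.96 had a standard error of 0.34 (limma adjusted p 1.84e-06). TXNL5, a thioredoxin-like protein, rose from -2.09 and -2.33 to 4.50 and 6.22, the widest replicate gap among these rises. HELLS, a chromatin helicase needed for DNA methylation, rose by 6.58 (standard error 0.18), and 1 of its 4 probes, with a change of 0.69, was not called. RCN3, a calcium-binding protein of the endoplasmic reticulum, rose by 6.28, and SIGLEC10, a sialic acid-binding receptor of immune cells, by 6.19. IDS, the lysosomal iduronate sulfatase whose sequence is printed above, had -0.34 and -0.46 against 5.55 and 5.18. Housekeeping genes and genes of neurons or immune cells thus stood side by side among the highest rises, and no test of a theme was made.

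Among promoters with at least 4 kept probes and no overlap, the largest fall of slide 1 was at SPINK4, a protease inhibitor of goblet cells. Its level was 4.53 and 4.40 on the unstimulated arrays and -1.26 and -1.18 on the stimulated ones, and all 4 probes were called lower. The promoter fell by 5.69 on the log2 scale (standard error 0.16, limma adjusted p 0.000175). CHRNA9, a nicotinic receptor subunit, fell by 5.56, with 2 of its 4 probes called. RNF181, a ubiquitin ligase, had 4.45 and 5.94 against 0.22 and 0.17, and its unstimulated arrays differed by more than those of any other fall named here. FASLG, the Fas ligand that triggers apoptosis, fell by 4.97, and PCDHGA10, a protocadherin, fell by 4.84. At PCDHGA10 the probes disagreed, since 4 were called lower while the remaining one changed by 0.95. RNF181 and PCDHGA10 each lost their call in 2 of 20 alternatives, SPINK4 and FASLG each in 1 of 20, and CHRNA9 in 0 of 20. With no filter on dim probes, the log2 change of RNF181 was -1.71 (limma adjusted p 0.0558) and the log2 change of PCDHGA10 was -1.65 (limma adjusted p 0.0708), and neither was called.

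By the same rule of at least 4 kept probes and no overlap, RNF125, a ubiquitin ligase of antiviral signalling, fell the most on slide 2. Its level was 6.80 and 6.28 on the unstimulated arrays and -0.29 and -1.15 on the stimulated ones. All 5 probes from -71 to 566 bp of the start were called lower, with changes of -9.52 to -5.23, and the promoter fell by 7.27 on the log2 scale (standard error 0.30, limma adjusted p 2.34e-06). The probe in the printed stretch, at -71 bp, went from 69472 and 54803 units to 240 and 144. OR6S1 and OR51T1, olfactory receptor genes, had changes of -6.61 and -6.01 with all 4 probes of each called lower. DKFZP566E164 fell by 5.89, and MRPL34, a subunit of the mitochondrial ribosome, fell by 5.39. As the choice of these promoters requires, the conditions did not overlap at any of them.

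**Figure D2:**
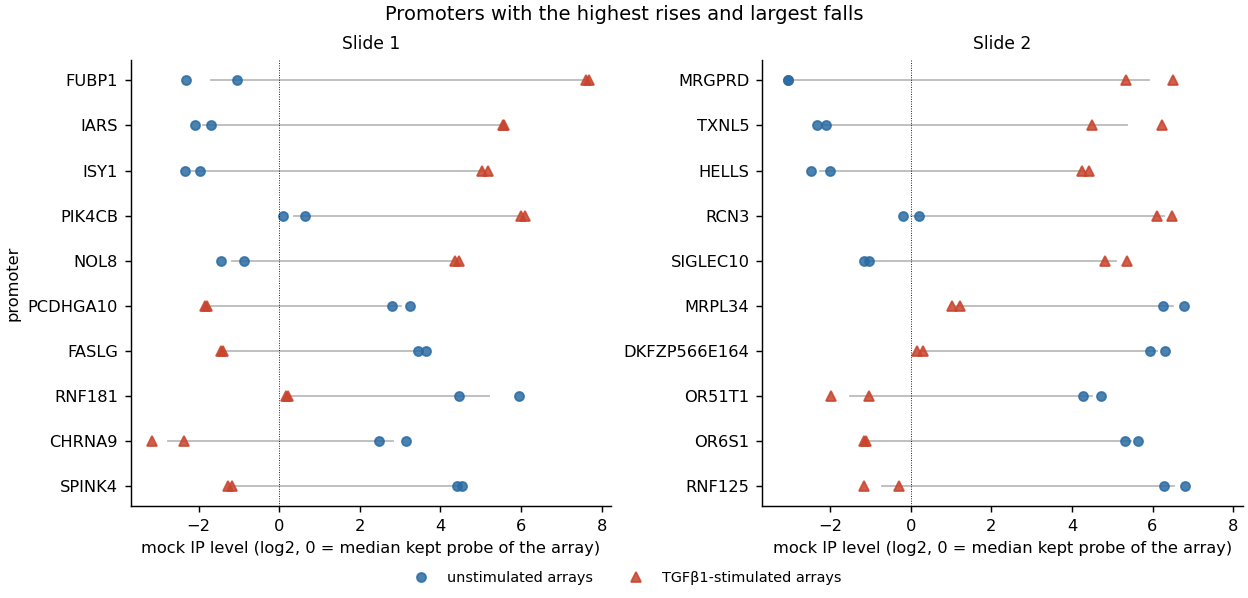
Mock IP level (log2, 0 is the median kept probe of the array) on each of the 4 arrays, with grey lines between the condition means. Shown are the 5 highest rises and the 5 largest falls per slide among promoters with at least 4 kept probes and no overlap. Replicates lie nearer to each other than the conditions do, with a gap as wide as 4.50 and 6.22 on the stimulated arrays at TXNL5. As the choice of these promoters requires, the conditions lie apart, from FUBP1 (-1.68 to 7.65) to RNF125 (6.54 to -0.72).

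The changes were local. The change of neighbouring probes correlated with r of 0.497 and 0.547 (slides 1 and 2) when their starts lay up to 100 bp apart and of 0.421 and 0.450 at 100 to 200 bp. It was 0.172 and 0.190 at 300 to 400 bp, and at 1000 to 2000 bp it was 0.0111 and 0.00554. Many close pairs still differed in direction. The changes had the same sign in 57.9% and 58.6% of pairs up to 100 bp apart. This share was 55.1% and 57.4% at 100 to 200 bp, and 50.4% and 50.8% at 2000 to 5000 bp. The difference between replicates had r between -0.00871 and 0.0767 at every spacing tested, given as a description with no p. Next to a probe called higher, the adjacent kept probe within 200 bp was called higher in 31.6% and lower in 9.68% of cases on slide 1, and in 36.1% and 15.5% on slide 2. Next to a probe called lower it was called lower in 28.9% and 39.2%. With the adjacent probe over 1000 bp away, 14.8% and 26.6% of the neighbours of higher probes were called higher, which is near the share of all probes.

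**Figure D3:**
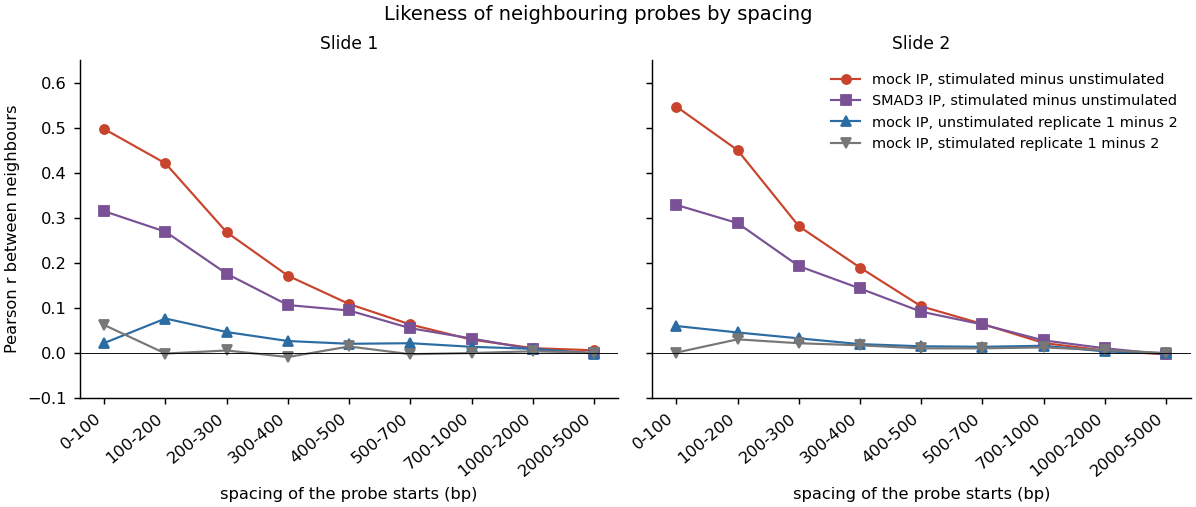
Pearson r between kept probes of a chromosome by the spacing of their starts in bp, for the mock IP change, the SMAD3 IP change and the difference between the replicates of each condition. The mock IP change falls from 0.497 and 0.547 in the closest class to about 0 beyond 1000 bp, and the replicate differences stay under 0.08.

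A promoter could hold both directions. Of the promoters that rose, 37.8% also held at least 1 probe called lower, and of those that fell, 47.0% held one called higher, while 44.8% of all tested promoters held both. Every kept probe was called the same way in 82 of the 3452 promoters that rose and in 60 of the 2818 that fell. S100A2, a calcium-binding protein of epithelia, is an example. Its promoter level was 1.08 and 0.84 without and 0.39 and 0.46 with TGFβ1, a change of -0.53 that did not pass the test (limma adjusted p 0.064). At -1051 bp from the start the probe rose by 9.13, from 149 and 161 units to 77664 and 95822. At -568 and -465 bp the probes had changes of -8.56 and -9.24, while the probes at 113, 212 and 390 bp downstream had changes between -0.38 and 0.30 that were not called.

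The genes that the study names for SMAD3 binding or TGFβ1 response also held probes that moved apart from their neighbours, and 13 of 15 were tested. FGB and RRAS had too few kept probes. SMAD6, an inhibitory SMAD that dampens the signal, had a mock level of -0.50 and -0.69 on the unstimulated arrays and 1.62 and 1.70 on the stimulated ones. This rise of 2.25 (standard error 0.14, limma adjusted p 1.19e-05) rested mostly on 2 of 9 probes. At 256 bp downstream of the start the intensity went from 101 and 89.4 to 45955 and 103894 units, and at 375 bp from 97.6 and 57.5 to 29247 and 58957. The other 7 probes changed by -1.69 to 1.61, and over all kept probes of SMAD6 at any distance the change was -0.40. SMAD7, the other inhibitory SMAD, had -0.06 and 0.02 against 0.45 and 0.37. Its rise of 0.43 (standard error 0.13, limma adjusted p 0.0222) kept its call in 12 of 20 alternative settings and was -0.14 with the median of its probes.

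TAGLN, which encodes the smooth muscle protein transgelin, had a level of 0.30 on both unstimulated arrays and 1.47 and 1.57 on the stimulated ones, a rise of 1.22 (standard error 0.13, limma adjusted p 0.000156). With the median of its probes, the log2 change of TAGLN was 0.055 and not called (limma adjusted p 0.812). The probe at -1732 bp rose by 8.85 and the one at -300 bp fell by 2.20 on the log2 scale. TGFB1, the ligand itself, had 2.64 and 2.52 against 1.88 and 1.86 and fell by 0.71 on the log2 scale (standard error 0.13, limma adjusted p 0.00253). Of its 7 probes, the one at -407 bp fell by 7.09 on the log2 scale, from 65894 and 55155 units to 282 and 578, and the one at -146 bp fell by 0.94. The probes 172 and 668 bp downstream rose by 0.86 and 1.22, and the other 3 changed by 0.15 to 0.51, which was not called. COL7A1, a collagen of basement membranes, had -0.05 and 0.07 against 0.87 and 0.88 over 17 probes, of which 5 were called higher and 1 lower. Single probes differed more between the unstimulated arrays, in both directions, with 3057 and 34523 units at -195 bp and 1981 and 776 at -414 bp. The rise of COL7A1 by 0.87 (limma adjusted p 0.0115) kept its call in 12 of 20 alternatives, and over probes at any distance the change was -0.13. CTGF, a matricellular protein induced by TGFβ1, fell by 1.05 (limma adjusted p 0.00652), with 1 of 5 probes called. The fall of CTGF kept its call in 14 of 20 alternatives, and the log2 change of CTGF was -0.012 (limma adjusted p 0.978) with the median of its probes and -0.52 (limma adjusted p 0.809) centred on all probes. The remaining 7 genes were not called. Among them were FOXA2, a forkhead factor of lung epithelium, with a change of 0.26 (standard error 0.15, limma adjusted p 0.155), and LTBP3, which binds latent TGFβ, also with 0.26 (standard error 0.13, limma adjusted p 0.109). SMURF1, a ubiquitin ligase for SMADs, changed by -0.94 (standard error 0.31, limma adjusted p 0.0706), and the changes of EPS8, PDE7B and MYO1D lay between -0.24 and -0.06. The change of SMURF1 rested mostly on the probe at -1622 bp, which itself was not called. This probe had 837 and 48583 units on the unstimulated and 406 and 665 on the stimulated arrays. The other SMURF1 probes changed by -0.76 to 0.34. SMURF1 was called in 9 of 20 alternatives, and with the same sign S100A2 in 5 of 20 and FOXA2 in 3 of 18.

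**Figure D4:**
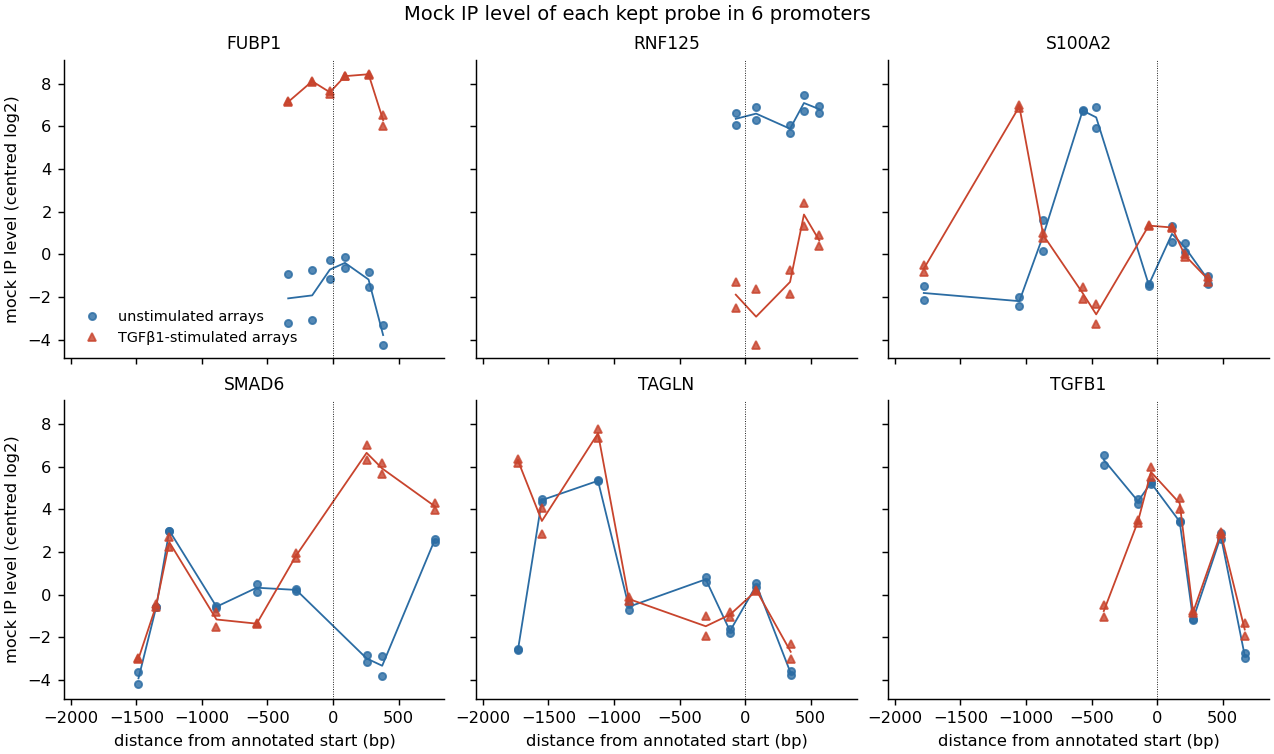
Mock IP level (log2, 0 is the median kept probe of the array) of each kept probe against its distance from the annotated start in bp, with a point per array and lines through the condition means. FUBP1 and RNF125 differ along the whole stretch, while S100A2, SMAD6, TAGLN and TGFB1 differ most at a few probes, by up to 9.64 at SMAD6.

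In the TGFβ pathway (ligands, receptors, SMADs and their regulators), 9 of 25 tested promoters rose and 2 fell, which is 36.0% and 8.0% against 26.6% and 21.7% of all promoters tested, with a median change of 0.21 against 0.10. SMAD6 had the highest rise. The largest fall was at TGIF2, a corepressor of SMADs, from 2.42 and 2.20 to -0.25 and -0.34, with 8 of 11 probes called lower. Of 38 early response genes, 14 rose and 7 fell, which is 36.8% and 18.4%. IER3, an immediate early gene, rose by 4.05 (standard error 0.16), with a level of -0.46 and -0.30 against 3.66 and 3.69 and 4 of 6 probes called. ZFP36, which destabilises inflammatory mRNAs, fell by 2.05, although 1 of its probes rose by 6.79, and over probes at any distance the log2 change of ZFP36 was -0.25, which was not called (limma adjusted p 0.158). Of 27 genes of epithelial-mesenchymal transition and matrix, 7 rose (25.9%) and 5 fell (18.5%), near the shares of all promoters, from VIM, the intermediate filament vimentin (2.56, with 1 probe up to 10.75), to COL4A1, a basement membrane collagen (-1.91).

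The counts of the next lists are to be read against the 26.6% of all tested promoters that rose and the 21.7% that fell. These shares were 19.1% and 16.4% on slide 1 and 33.3% and 26.5% on slide 2, and the lists divide unevenly between the slides. Highly transcribed housekeeping genes gave 8 rises (25.0%) and 10 falls (31.2%) among 32, with a median of 0.06. PPIA, the peptidyl-prolyl isomerase cyclophilin A, rose from 0.90 and 0.72 to 4.78 and 4.52, and PFN1, the actin-binding profilin, fell from 5.43 and 5.11 to 2.19 and 2.04. Of 17 NRF2 and redox genes, 3 rose (17.6%) and 5 fell (29.4%), from PRDX1, a peroxiredoxin (4.31), to ALDH3A1, an aldehyde dehydrogenase (-1.82). Of 18 lung epithelial genes, 6 rose (33.3%) and 5 fell (27.8%), from SFTPD, surfactant protein D (1.43), to LAMP3, a lysosomal protein of alveolar type II cells (-2.01). With no filter on dim probes, the log2 change of SFTPD was 0.10 and not called (limma adjusted p 0.638). LAMP3 kept its call in 14 of 18 alternatives, and with no filter on dim probes the log2 change of LAMP3 was -0.78 (limma adjusted p 0.623). The LAMP3 probe with the largest fall, 471 bp downstream, had 5385 and 57436 units on the unstimulated arrays and 53.4 and 109 on the stimulated ones. Ribosomal protein genes had 17 rises (35.4%) and 5 falls (10.4%) among 48 (median 0.32), with the highest rise at RPL6 (5.40). Of 12 replication-dependent histone genes, 1 rose (8.33%; HIST1H2AL, 4.55) and 3 fell (25.0%), HIST3H3 the most (-3.95). All 12 lie on slide 1, where 19.1% of promoters rose and 16.4% fell.

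Other gene families held both directions as well, beside the same 26.6% and 21.7% of all promoters. Of 75 olfactory receptor genes, which are known to be silent in most tissues outside the nose, 28 rose (37.3%) and 13 fell (17.3%), from OR13J1 (3.28) to OR6S1 (-6.61), at a median mean level of -0.72. Zinc finger ZNF genes gave 74 rises (25.6%) and 77 falls (26.6%) among 289, with ZNF233 at 6.67 and ZNF30 at -5.63. Of 38 HOX genes 13 rose (34.2%) and 6 fell (15.8%), from HOXD10 (2.81) to HOXD4 (-2.13), which lie in the same cluster. Centred on all probes, the log2 change of HOXD4 was -1.60 and not called (limma adjusted p 0.373). Of 35 keratin genes 11 rose and 11 fell (31.4% each), from KRT4 (2.00) to KRT24 (-4.33). All 35 lie on slide 2, where 33.3% of promoters rose and 26.5% fell. Of the 12 tested genes that the study lists as changed in fibrotic lungs, 3 rose and 3 fell, from TAGLN to C14orf43 (-3.91). Of 222 tested genes that the study lists as bound by SMAD3 without stimulation, 59 (26.6%) rose and 45 (20.3%) fell in the mock IP. Of 329 listed as bound after TGFβ1 alone, 94 (28.6%) rose and 79 (24.0%) fell. The study chose both lists on its own SMAD3 over mock arrays, so they are not taken as independent of the mock IP. Its methods describe another array format and number of replicates than the arrays used here, and whether the lists came from these arrays was not tested. The shares of both lists lie near those of all promoters.

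In the SMAD3 IP, hybridised to the same spots, a smaller share of promoters was called, 17.9% higher and 12.6% lower. The probes had been kept by their mock signal alone. In the SMAD3 IP, 81.5% of them on slide 1 and 81.3% on slide 2 were well above background on all 4 arrays. The shares of both channels are therefore not compared on equal terms. Of the promoters that rose in the mock IP, 33.8% were called higher and 5.94% lower in the SMAD3 IP, with a median SMAD3 IP change of 0.41 beside a median mock IP change of 0.98. Of those that fell, 31.8% were lower and 7.84% higher, with medians of -0.28 and -1.14. Both groups were picked by their mock IP change, which favours large mock IP changes, so the sizes in the channels cannot be compared. Across promoters, both changes correlated with r of 0.380 on slide 1 and 0.398 on slide 2. The channels share spots and arrays, and no p is given. At FUBP1 the SMAD3 IP change was 2.57 beside 9.34 in the mock IP, and at RNF125 it was -2.08 beside -7.27. At MRPL34 it was -0.06, which was not called, beside -5.39. These promoters were also picked as extremes of the mock IP.

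The ratio of the channels (log2, SMAD3 IP over mock IP) holds the mock change with its sign reversed, so that both are tied by construction. The ratio was called higher at 25.9% of promoters and lower at 29.7%. Of the 3853 promoters with a lower ratio, 56.7% had a mock IP that rose and a SMAD3 IP that was not called lower, and 17.0% had a SMAD3 IP that fell and a mock IP that was not called higher. Of the 3366 promoters with a higher ratio, 52.1% had a mock IP that fell and a SMAD3 IP not called higher, and 23.1% a SMAD3 IP that rose and a mock IP not called lower. At SMAD6 the ratio fell by 1.69 on the log2 scale while its SMAD3 IP signal rose by 0.68. At TGFB1 the ratio rose by 0.94 beside a SMAD3 IP change of 0.35 (limma adjusted p 0.0909). At FUBP1 the ratio fell by 6.85 and at RNF125 it rose by 5.06.

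**Figure D5:**
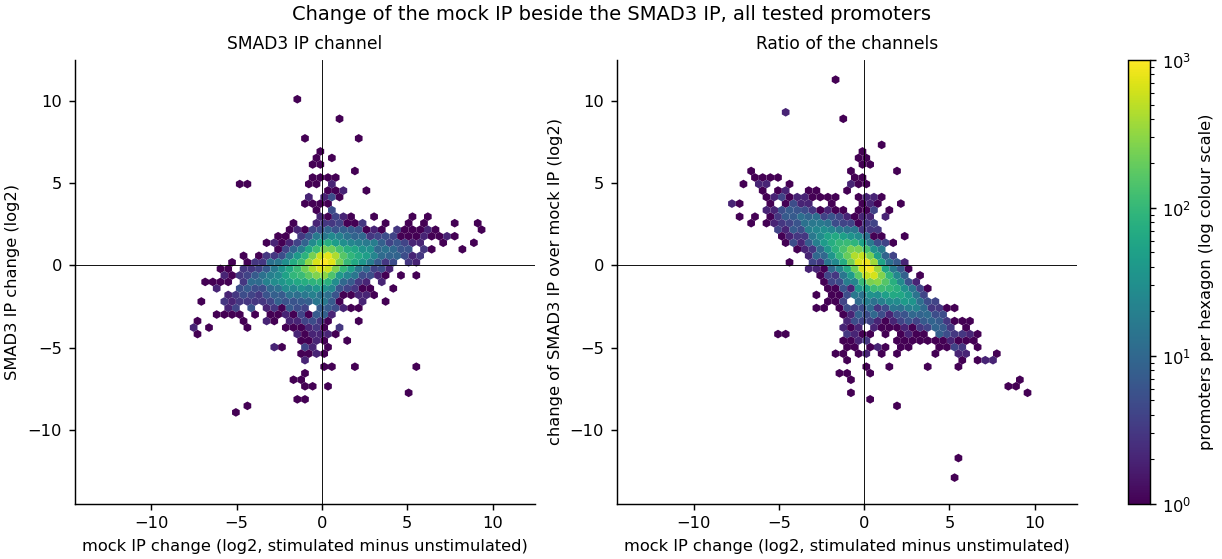
Change of the mock IP (x axis, log2, stimulated minus unstimulated) of every tested promoter against the change of the SMAD3 IP at the same probes on the left and of the ratio of SMAD3 IP to mock IP on the right, with colour for promoters per hexagon on a log scale. The SMAD3 IP change slopes upwards (r 0.380 and 0.398 on slides 1 and 2), and the ratio, which subtracts the mock change, slopes downwards.

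The mock signal was highest near the starts, while calls were about as frequent far upstream. On slide 1, 69.7% of the probes within 250 bp of a start were kept, against 24.3% beyond 3000 bp upstream, and on slide 2 75.6% against 34.5%. The median level of kept probes within 250 bp was 0.97 and 0.88, against -0.29 and -0.28 far upstream. Within 250 bp, 16.3% of the kept probes were called higher and 13.1% lower on slide 1, and 26.1% and 20.3% on slide 2. Beyond 3000 bp upstream, it was 16.1% and 15.9% on slide 1 and 27.4% and 23.0% on slide 2. Kept probes of the highest level class were called more often than those of the lowest. The level was the mean of all 4 arrays, so the classes are not independent of the change. As kept probes are above background on every array, a low mean leaves little room for a large change. Nothing is drawn from this contrast. On slide 1, 4.09% of the lowest of 4 equal level classes of kept probes were called higher and 5.85% lower, against 23.3% and 20.5% of the highest class, and on slide 2 the shares were 19.2% and 6.93% against 29.0% and 31.0%. Outside the kept probes, 9367 on slide 1 and 7995 on slide 2 were well above background on both unstimulated arrays and on neither stimulated one, and 5523 and 7394 the reverse. These have only a bound in 1 condition and were left out, so the changes at such places were not measured here.

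The sources used here do not say whether the replicates of a condition were cross-linked, precipitated and amplified together before the recovered DNA was amplified by PCR and labelled. Differences between conditions and between such batches cannot be told apart, and the p-values measure the spread between these arrays. The stimulation is given as 2 h at the longest in the labels and as a shorter time elsewhere in the study.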

How the data were processed

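The mock IP and SMAD3 IP of 2 unstimulated and 2 TGFβ1-stimulated replicates were measured on 2 slides, 8 Agilent 2-colour promoter arrays in all. For each spot and dye, the authors deposited a processed intensity from Agilent Feature Extraction 9.5.1.1, which had subtracted background, detrended the signals and scaled each dye linearly within the array. The arrays had not been normalized to each other. The annotation names no genome build, so that only distances to starts are given. The authors' log ratios were not used here.

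The labels gave group and replicate of each array. Control spots were left out, probes had to be well above background in the Cy3 channel on all 4 arrays, and log2 processed intensities were centred on the median of each array. Promoters were the mean of at least 3 kept probes from 2000 bp upstream to 800 bp downstream of a start. Each slide was tested on its own with limma 3.58.1 (lmFit and eBayes, R 4.3.3) and Benjamini-Hochberg adjustment at 0.05. The code was also tested on simulated data, which took their means and spread from the fitted promoters. Per array, the software called 47.0% to 60.8% of mock signals well above background, and the number of arrays limits the precision.

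The promoters named are the 5 highest rises and 5 largest falls per slide with at least 4 kept probes and no overlap, the genes the study names, the extremes of each gene list and the promoters whose sequences are printed. Of these, 1 promoter is not reported here. The members and lists were chosen with earlier results of these data known. Alternatives comprised other background corrections, centrings, filters and promoter summaries, a replicate block and leaving out each array. Normexp without spots of high background and the centring by promoter GC content were chosen after seeing the data. Of 12977 promoters, 9988 matched a RefSeq promoter by symbol or unique synonym. Python 3.11.15 with numpy 2.4.6, pandas 2.3.3 and matplotlib 3.10.9 was used for summaries and figures.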

Additional observations from a re-analysis of the deposited data

How the results depend on the processing

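Each slide was fitted again under every alternative. With the replicate number as a block, 2242 promoters and 19736 probes were called on slide 1 and 4349 promoters and 54211 probes on slide 2. Deviations of same-numbered arrays correlated with r of 0.07 and 0.06 (slides 1 and 2), which does not tell whether such arrays shared a batch. Normexp called 401 promoters (359 higher and 42 lower) and 6897 probes on slide 1. On slide 2 it called 0 promoters (693 with an unadjusted limma p under 0.05) and 0 probes (10793). Without the 39 and 62 probes whose local background exceeded their signal by over 100 units, an alternative chosen after seeing the data, it called 1862 and 3927 promoters. Centring on all probes called 389 promoters and 12880 probes on slide 1, the 75th percentile 1270 promoters and no filter on dim probes 748. Leaving out 1 array gave 1216 to 3729 promoters and 8004 to 43787 probes on slide 1, and 2972 to 4449 and 32996 to 62600 on slide 2. Centring by promoter GC content called 1778 of the 4833 and 3159 of the 5155 promoters with a value, but with values for 77.0% of promoters this check is void. GC content per probe, with and without the block, was not run, as the files hold no probe sequences. Of 50 named promoters that were called, 47 changed sign under no alternative run, and of 7 not called, 1. The signs turned at COL7A1 (-0.13), SMAD6 (-0.40) and FOXA2 (-0.086) over any distance, and at SMAD7 (-0.14), in the log2 change of LTBP3 (-0.20), and at EPS8 (0.34), MYO1D (0.079) and PDE7B (0.074) with the median of probes. Centring on all probes gave FOXA2 -0.012, LTBP3 -0.014 and PDE7B 0.43. No filter gave LTBP3 -0.095, MYO1D 0.47, PDE7B 0.44 and S100A2 1.00, and probes above background in 1 condition gave MYO1D 0.94, PDE7B 0.071 and S100A2 0.70. Without saturated or outlier spots EPS8 was 0.21, LTBP3 -0.021 and S100A2 0.57. EPS8 was 0.066 with normexp, 0.048 with quantile normalization and 0.15 with the 75th percentile. PDE7B was 0.047 with quantile normalization and 0.050 with cyclic loess, and with 1 array left out it ran from -0.25 to 0.043, and LTBP3 was -0.051 with normexp without spots of high background. The cause of these shifts was not tested.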
